A study of Mus musculus with 6 samples.

Results

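The Hox genes are 38 homeobox genes in 4 clusters of the mouse genome: 10 in the Hoxa cluster, 10 in Hoxb, 9 in Hoxc and 9 in Hoxd. They were taken by name from a fixed list and found in a RefSeq gene table, where they were 38 of 21887 protein-coding genes. Each gene was described by the listed regions of WDR5 and of trimethylated histone H3 lysine 4 (H3K4me3) within 1 kb of either gene end, and each cluster by the regions from its first to its last listed gene. The members were chosen by name and not by a measured value, though earlier results of these data were known.

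Hox genes encode transcription factors that set the identity of body segments along the head-to-tail axis, and they are switched on in the order in which they lie along a cluster. Genes of the same number in different clusters are paralogues that descend from 1 ancestral gene, with low numbers at the 3′ end of each cluster and used toward the head, and high numbers at the 5′ end and used toward the tail. In embryonic stem cells Hox promoters are a textbook case of bivalent chromatin, in which H3K4me3 and the Polycomb mark H3K27me3 lie at the same promoters while the genes are little used. WDR5 is a scaffold subunit of the KMT2/SETD1 complexes that methylate H3K4, a trithorax activity known for keeping Hox genes on after they have been induced.

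The cells were mouse embryonic stem cells with a GFP knock-in at Rx, grown in 2i+LIF. All of them, the controls included, were double knockouts for endogenous Wdr5 and p53. They were rescued with wild-type WDR5 (WDR5WT, here the WT rescue) or with WDR5 that carries S91K and Y191F (WDR5S91KY191F, here the mutant rescue), and the labels do not say whether a line was 1 clone. Chromatin was crosslinked for 10 minutes in 1% formaldehyde, and chromatin immunoprecipitation sequencing (ChIP-seq) gave 1 WDR5 and 1 H3K4me3 library for each line, whose peak lists are described here. Because each kind of library was made 1 time per line, differences between the lines could not be set against replicate spread, and they are described without tests or p-values.

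For the WT rescue the list of WDR5 regions had 11095 entries and that of H3K4me3 regions 71695; for the mutant rescue they had 26888 and 74305. The depth of sequencing, on which the number and width of regions depend, is unknown, since the lists give no reads. The fold enrichment and the −log10 q of a region are the authors' own values for that peak, so they rank regions within 1 list only. A −log10 q of at least 2 was reached by 94.0% and 90.7% of the H3K4me3 regions but by 10.8% and 4.83% of the WDR5 regions. Of 8 embryonic stem cell marker genes 7 had an H3K4me3 region within 1 kb of a gene end in each line, Esrrb being the exception. Of 8 fibroblast feeder markers 6 (WT rescue) and 3 (mutant rescue) had one. Such a region was listed at 68.4% and 67.6% of all protein-coding genes, so most of these counts are near that share. Expression is not measured by such lists, so these counts are a weak check of the cell type, and the part of feeder cells in the results was not tested.

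H3K4me3 lay at nearly all Hox genes in both lines. In the WT rescue 35 of 38 members (92.1%, exact 95% binomial interval 78.6 to 98.3%) had a region within 1 kb of a gene end, beside 68.4% of all protein-coding genes. In the mutant rescue 33 of 38 did (86.8%, 71.9 to 95.6%), beside 67.6% of all genes. The intervals cover counting error only, and neighbouring members share regions: the 35 and 33 genes rested on 44 and 38 distinct regions. Both lines had a region at 32 members, and 66.6% of all genes were in this class. The difference from all genes depended on the window: a region over the gene end itself was listed at 22 of 38 members in each line (57.9%), beside 57.6% and 57.2% of all genes.

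By cluster, with the WT rescue first, 10 and 9 of 10 Hoxa genes, 9 and 9 of 10 Hoxb genes, 9 and 8 of 9 Hoxc genes, and 7 and 7 of 9 Hoxd genes had a region. By place along the cluster, 9 and 8 of the 11 genes of paralogue groups 1 to 4 had a region, all 11 of groups 5 to 8 in each line, and 15 and 14 of the 16 genes of groups 9 to 13. The mark was thus listed at genes of every one of these groups, from head to tail.

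**Figure D1:**
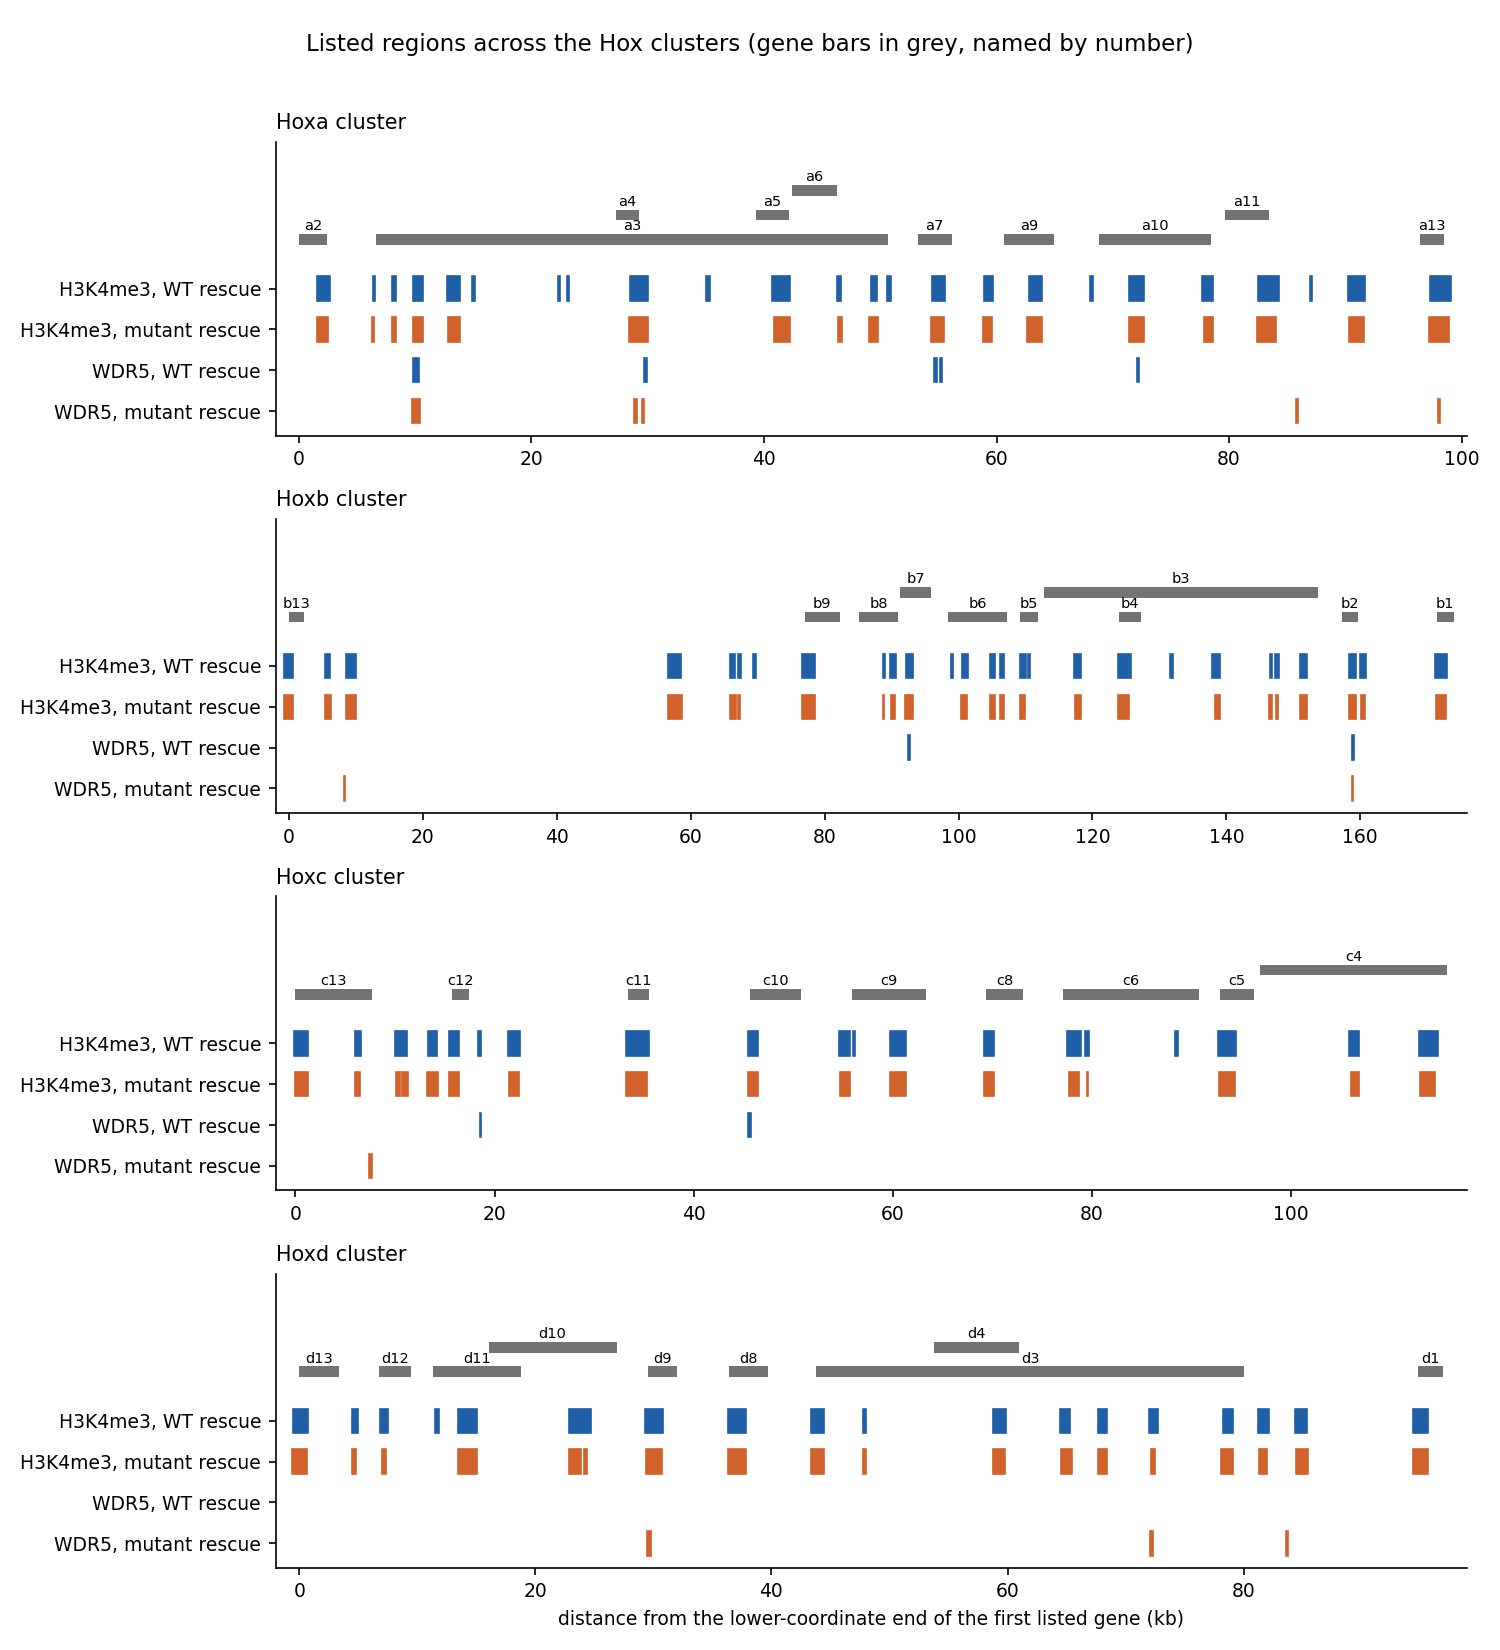
Each panel is 1 Hox cluster drawn to scale, with distance in kb from the lower-coordinate end of its first listed gene along the horizontal axis. Grey bars are genes, and coloured blocks are the regions listed for H3K4me3 and WDR5 in the WT rescue (blue) and the mutant rescue (orange), with outlines that widen the narrowest blocks slightly. H3K4me3 blocks run through all 4 clusters in both lines, except a stretch of 46.6 kb between Hoxb13 and Hoxb9, while WDR5 blocks are few.

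The members that differed between the lines mostly sat at the edge of the 1 kb window. A region was within the window only in the WT rescue at 3 members, Hoxa9, Hoxc4 and Hoxd11, and only in the mutant rescue at Hoxd10; these classes held 1.84% and 1.01% of all genes. At Hoxa9, a gene of the posterior group that is also a leukaemia oncogene, the nearest WT region was 996 bp from the gene end (794 bp wide, fold 6.09) and the nearest mutant region 1004 bp away (1292 bp wide, fold 5.08), on the other side; each list also held a counterpart of the other's region, at 1031 bp in the WT and 1088 bp in the mutant rescue. At Hoxc4 the WT region (1824 bp, fold 10.6) ended 961 bp from the gene end and the mutant region over the same place (1508 bp) 1257 bp from it. At Hoxd10, which takes part in patterning the hindlimb motor neurons, the WT region was 1019 bp away and the mutant region 970 bp (1628 bp wide, fold 7.43).

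For these 3 genes both lists therefore held H3K4me3 at nearly the same place. Hoxd11, which helps to pattern the forearm, was the exception. Its WT region (chr2:74679712-74680075, 364 bp, fold 2.48) lay 154 bp inside the lower-coordinate end of the gene and had no counterpart in the mutant rescue list, whose nearest region was 2118 bp away.

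Hoxb3 and Hoxd4 had no region within 1 kb in either line, as had 30.6% of all genes, but neither gene lacked the mark. The nearest region was 1528 and 1613 bp from the ends of Hoxb3 in the WT and the mutant rescue, and 1055 and 1181 bp from those of Hoxd4. Both genes have internal regions of high fold. In Hoxd4, which also lies inside the longer Hoxd3 gene model, the region at chr2:74726958-74728105 of the WT rescue was 1148 bp wide and its fold was 13.6. The mutant rescue region there was 981 bp wide with a fold of 14.8, the highest of all 76 mutant rescue regions in the clusters. In Hoxb3 the region at chr11:96332223-96333413 was 1191 bp wide with a fold of 12.0, and its mutant rescue counterpart 728 bp with 10.0.

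Gene models of the clusters overlap, so an end of a long model is not the same as a promoter in use. The models of Hoxa3, Hoxb3 and Hoxd3 each run over other members. RefSeq (GRCm38.p6, the coordinates of mm10) gave 24 annotated starts for 22 of the 38 members. The start itself lay inside an H3K4me3 region at 17 of 24 in the WT rescue (70.8%, beside 62.3% of all starts) and at 16 of 24 in the mutant rescue (66.7%, beside 61.6%). Among the exceptions were Hoxd4, with 4980 and 5021 bp from its annotated start to the nearest region, and Hoxb8, with 1134 and 1103 bp.

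The promoters of Hoxd11 show how H3K4me3 differed between starts of 1 gene. The promoter sequence is 250 bases before to 50 bases after the start, on the + strand, and every CpG is in capitals, since CpG-rich promoters are the ones that usually carry H3K4me3. The outer promoter (chr2:74679308-74679607) has 4 CpG and no H3K4me3 region over it in either line. The inner promoter (chr2:74682073-74682372) has 25 CpG, and all 300 bases lay in an H3K4me3 region in both lines.
Hoxd11 outer promoter: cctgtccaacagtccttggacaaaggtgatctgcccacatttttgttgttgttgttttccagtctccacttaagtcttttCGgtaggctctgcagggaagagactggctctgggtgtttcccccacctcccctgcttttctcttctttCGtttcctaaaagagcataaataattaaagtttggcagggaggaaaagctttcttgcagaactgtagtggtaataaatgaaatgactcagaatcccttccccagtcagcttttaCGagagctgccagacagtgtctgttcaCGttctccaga
Hoxd11 inner promoter: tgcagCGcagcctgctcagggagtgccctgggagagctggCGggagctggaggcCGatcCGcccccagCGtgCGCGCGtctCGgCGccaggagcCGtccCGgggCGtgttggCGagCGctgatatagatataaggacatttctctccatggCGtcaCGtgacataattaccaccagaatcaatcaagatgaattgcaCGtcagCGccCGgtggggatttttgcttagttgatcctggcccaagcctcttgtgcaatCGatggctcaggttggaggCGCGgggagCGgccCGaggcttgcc

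Over the 24 Hox promoters the median was 14.5 CpG per 300 bases (4 to 45), beside 13 over all 21263 promoters of protein-coding genes, and the median GC content was 57.7% beside 56.3%. At least 4 CpG, the number of the outer Hoxd11 promoter, were held by 76.1% of all promoters, and at least 25 by 24.8%. A region overlapped 19 of 24 Hox promoters in the WT rescue (79.2%, beside 64.2% of all) and 17 in the mutant rescue (70.8%, beside 63.3%). Among Hox promoters with at least 13 CpG it was 14 and 12 of 15, beside 98.2% and 98.0% of all such promoters. Among those with fewer CpG it was 5 of 9 in each line, beside 28.9% and 27.3%.

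The CpG-richest Hox promoter was that of Hoxa13 (chr6:52260831-52261130, − strand), the most posterior Hoxa gene, needed for digit and urogenital development. It has 45 CpG, a number that 2.48% of all promoters reach, and lay whole within H3K4me3 in both lines. Hoxa3 (chr6:52213018-52213317, − strand), needed for thymus and parathyroid development, has 20 CpG, and 287 of its 300 promoter bases lay in a WT rescue region but none in a mutant rescue region. They are shown as the CpG-richest promoter and as the promoter with the largest difference in cover between the lines, again with CpG in capitals.
Hoxa13 promoter: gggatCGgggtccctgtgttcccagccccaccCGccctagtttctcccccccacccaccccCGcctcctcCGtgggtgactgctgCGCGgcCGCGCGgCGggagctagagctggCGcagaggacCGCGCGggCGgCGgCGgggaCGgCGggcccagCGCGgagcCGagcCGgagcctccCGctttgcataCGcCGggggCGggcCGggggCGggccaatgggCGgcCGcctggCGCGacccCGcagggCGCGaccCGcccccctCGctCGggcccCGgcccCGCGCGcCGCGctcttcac
Hoxa3 promoter: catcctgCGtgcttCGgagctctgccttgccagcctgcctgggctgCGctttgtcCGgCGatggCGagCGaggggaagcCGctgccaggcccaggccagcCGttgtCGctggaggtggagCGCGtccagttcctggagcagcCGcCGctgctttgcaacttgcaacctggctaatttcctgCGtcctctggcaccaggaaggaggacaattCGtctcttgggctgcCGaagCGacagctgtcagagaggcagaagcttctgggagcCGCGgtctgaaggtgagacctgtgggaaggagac

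The Hoxa3 promoter region of the WT rescue was narrow and weak for its list (chr6:52213031-52213357, 327 bp, fold 2.1, −log10 q 5.96). The nearest mutant rescue region, 824 bp from the start, was 765 bp wide with a fold of 3.07, and the WT rescue had its own region at that place, 574 bp wide with a fold of 2.78.

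The widest regions at Hox gene ends were by median somewhat narrower than those over all occupied protein-coding genes. The widest region at a gene's ends had a median of 1241 bp over the 35 occupied members in the WT rescue (364 to 2279 bp) and of 1220 bp over the 33 in the mutant rescue (344 to 1950 bp), beside 1515 and 1455 bp over all occupied protein-coding genes. In the WT rescue the medians were 1241 bp for paralogue groups 1 to 4, 1140 bp for groups 5 to 8 and 1299 bp for groups 9 to 13. In the mutant rescue they were 1200, 1194 and 1298 bp. Across members, Spearman's rho of width against paralogue group was -0.02 (n = 35) and 0.10 (n = 33), as a description of genes that share a library and, within a cluster, a chromosome. Width did not follow the order along the clusters in either list.

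Counting only regions within 1 kb of a gene end, the member with the widest WT rescue region belonged to the posterior groups in each cluster. In Hoxa it was Hoxa13, with 1767 bp and, in the mutant rescue, 1770 bp (folds 8.76 and 9.16). In Hoxb it was Hoxb9, with 2025 and 1950 bp, which also had the highest fold of the Hoxb members in the WT rescue, 10.8. For the mutant rescue its fold was 9.91, below the 10.8 of Hoxb4. In Hoxd it was Hoxd9, with 1566 and 1398 bp (9.33 and 9.87), though regions farther from the gene ends were wider in the WT rescue, 1819 bp inside Hoxd10 and 1594 bp inside Hoxd11. These 3 genes kept a single region of similar width in both lines.

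Hoxc11 was different. Its WT rescue region (chr15:102954366-102956644) was 2279 bp wide with a fold of 7.05, the widest of all 90 in the WT rescue clusters. In the mutant rescue the same stretch was listed as 2 regions, of 1220 bp (fold 6.97) and 767 bp (fold 3.78). Together the pair covered 1987 bp.

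Taking the member of highest fold in the WT rescue in each cluster, again within 1 kb of a gene end, the genes were others except in Hoxb. Hoxc10 had the highest of all, 20.3 over a region of 1065 bp, above 98.9% of its whole list, and 12.2 over 1028 bp in the mutant rescue. Hoxa4 had 12.4 over 1601 bp and 12.0 over 1648 bp. Hoxd1 had 11.2 over 1241 bp and 11.8 over 1285 bp, and Hoxd13, a limb and digit gene at the other end of the cluster, 11.2 over 1299 bp and 12.2 over 1267 bp. Folds as high or higher also occurred in the middle of a cluster, at Hoxc8 (12.0) and Hoxc6 (11.7). Farther from the gene ends, the WT rescue regions inside Hoxd4 (13.6) and Hoxb3 (12.0) exceeded every fold within that window in their clusters. The lowest in the WT rescue was at Hoxd11.

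**Figure D2:**
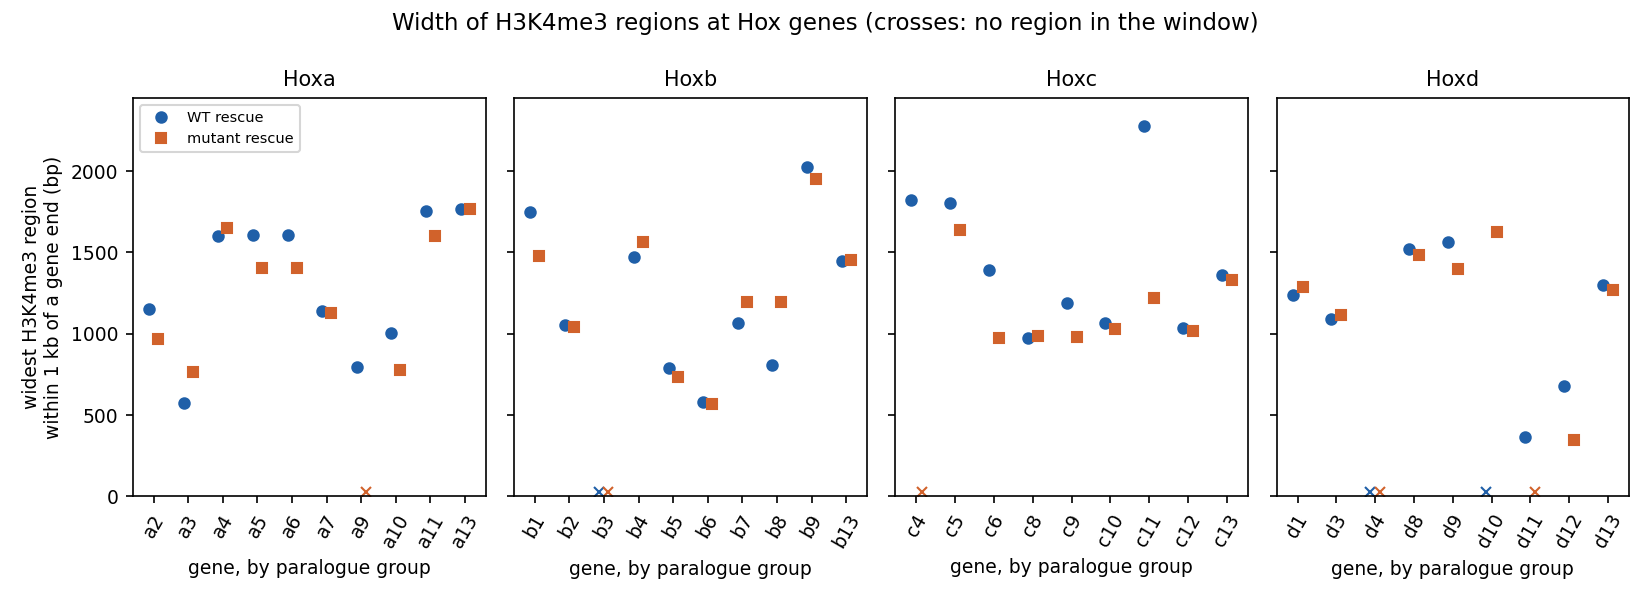
Each panel is 1 cluster with its genes in order of paralogue group, and the vertical axis is the width in bp of the widest H3K4me3 region within 1 kb of a gene end. Blue circles are the WT rescue, orange squares the mutant rescue, and crosses at the base mark genes with no region in the window. Most pairs of symbols lie close together; Hoxc11 (2279 and 1220 bp) stands apart.

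The other members were spread between these. In Hoxa the WT and mutant rescue widths were 1154 and 969 bp at Hoxa2, a hindbrain gene, 1610 and 1404 bp at Hoxa5, needed for lung development, whose region Hoxa6 shares, and 1140 and 1128 bp at Hoxa7. They were 1004 and 777 bp at Hoxa10 and 1757 and 1599 bp at Hoxa11, a pair that acts in the uterus and limb. In Hoxb they were 1749 and 1476 bp at Hoxb1, the gene of hindbrain rhombomere 4, 1055 and 1044 bp at Hoxb2, 1475 and 1564 bp at Hoxb4, and 1445 and 1452 bp at Hoxb13, a prostate gene. The middle of the Hoxb cluster had narrower regions.

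At Hoxb5 the widths were 788 and 736 bp and at Hoxb6 582 and 566 bp. At Hoxb7 they were 1069 and 1194 bp, and at Hoxb8 807 and 1194 bp, the last being the region of Hoxb7, which reached into the window of Hoxb8 only in the mutant rescue. In Hoxc they were 1806 and 1638 bp at Hoxc5, 1392 and 972 bp at Hoxc6, 975 and 989 bp at Hoxc8, 1190 and 981 bp at Hoxc9, 1038 and 1018 bp at Hoxc12, and 1359 and 1328 bp at Hoxc13, a hair follicle gene. Hoxc8 had folds of 12.0 and 14.2 despite its narrow regions. In Hoxd they were 1091 and 1116 bp at Hoxd3, 1524 and 1484 bp at Hoxd8, and 682 and 344 bp at Hoxd12.

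Across whole clusters H3K4me3 was denser than over the genome. The comparisons with the genome do not allow for how closely genes lie in the clusters. The 4 spans, 485 kb in all, held 90 WT rescue and 76 mutant rescue regions, which covered 16.8% and 14.7% of the sequence beside 2.35% and 2.39% of the genome. The Hoxa span (chr6:52162417-52260880, 98.5 kb) was covered over 19.4% and 17.1%, and the Hoxb span (chr11:96194316-96368254, 174 kb) over 14.1% and 12.3%. The Hoxc span (chr15:102921131-103036856, 116 kb) was covered over 17.4% and 15.2%, and the Hoxd span (chr2:74668225-74765142, 96.9 kb) over 18.2% and 16.0%. Of 27235 tiles of 100 kb over the genome, 0.712% (WT rescue) and 1.63% (mutant rescue) were covered at least as much as the least covered cluster, Hoxb. The spans held 186 and 157 regions per Mb, beside 26.9 and 27.9 over the genome. The median width of these regions was 902 and 976 bp, beside 744 and 726 bp over the whole lists. Very wide regions were not in excess: 9 of 90 (10.0%) and 3 of 76 (3.95%) reached the 90th percentile of width of their list, 1714 and 1690 bp.

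The mark was not spread evenly. The member genes fill 56.4% of the spans and held 74.3% and 74.4% of the covered sequence, so that 22.1% and 19.4% of the bases in members were covered and 9.91% and 8.65% of those between them. The longest stretch without H3K4me3 was the same in both lines, 46.6 and 46.7 kb between Hoxb13 and Hoxb9 (from 96204292 in the WT rescue). It ended at a region 1980 bp wide in the WT rescue (chr11:96250938-96252917) and 2114 bp wide in the mutant rescue, the widest of the mutant rescue clusters, which lay 18413 and 18272 bp from Hoxb9 and in no member. The longest stretches in the other clusters were 7.18 and 14.5 kb in Hoxa, 11.4 and 13.1 kb in Hoxc, and 10.7 and 10.8 kb in Hoxd, and no WDR5 region lay in any of these stretches.

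Each of the 4 clusters had less sequence in H3K4me3 regions in the mutant rescue than in the WT rescue, by similar amounts. Covered sequence was 19.2 and 16.9 kb in Hoxa, 24.5 and 21.4 kb in Hoxb, 20.2 and 17.6 kb in Hoxc, and 17.7 and 15.5 kb in Hoxd. The mutant to WT ratios were 0.881, 0.871, 0.875 and 0.879, and 0.876 over all clusters, while the whole lists had a ratio of 1.02. A ratio this low was not rare among densely covered stretches: of 1000 tiles of 100 kb with at least 10 kb covered in the WT rescue the median ratio was 0.971, and 19.1% were at or below 0.881. The ratio is a description of 1 pair of libraries. The fibroblast feeder markers also had less covered sequence in the mutant rescue (5 of 6 covered genes, median ratio 0.626), and the part of feeder cells or read depth in the cluster ratios was not tested.

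Gene by gene, counting the gene and 1 kb on both sides, 31 of 38 members had less covered sequence in the mutant rescue (81.6%), beside 67.7% of the 16717 covered protein-coding genes. The median ratio was 0.903 over Hox genes (quartiles 0.834 and 0.972) and 0.947 over all genes (0.850 and 1.03). It was lower in 7 of 10 Hoxa, 8 of 10 Hoxb, 8 of 9 Hoxc and 8 of 9 Hoxd genes. By ratio the lowest members were Hoxd12, with 682 and 344 bp, and Hoxc6, with 2039 and 1128 bp, while the long genes Hoxb3 (6624 and 5078 bp) and Hoxa3 (7834 and 6440 bp) differed most in bp. The 7 members with more in the mutant rescue were Hoxa4, Hoxa9, Hoxa13, Hoxb7, Hoxb13, Hoxc8 and Hoxd1, led by Hoxa9, from 1095 to 1292 bp. Overlapping gene models count some sequence for more than 1 member.

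**Figure D3:**
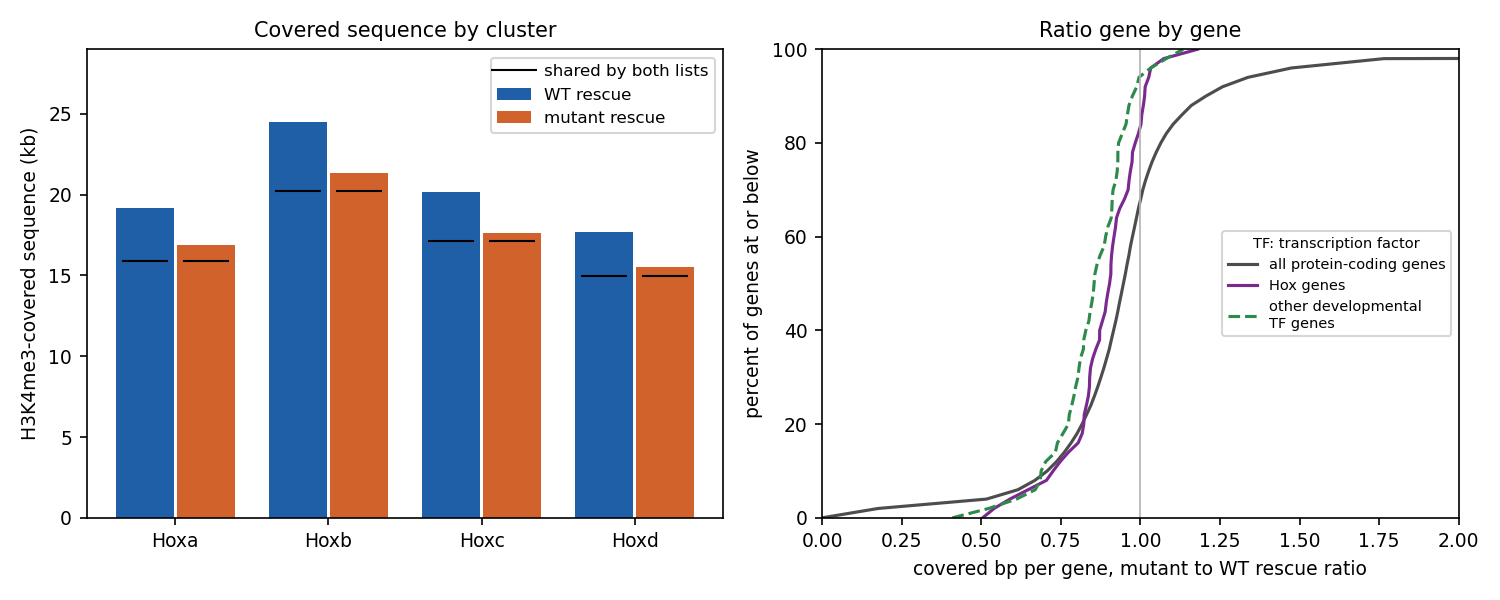
The left panel gives the kb of each Hox cluster inside H3K4me3 regions in the WT rescue (blue) and the mutant rescue (orange), with a black line at the kb that both lists share. The right panel gives, for the ratio of covered bp per gene in the mutant to the WT rescue, the percent of genes at or below each value, with the axis ending at 2. All 4 orange bars are below their blue neighbours, and the curve of Hox genes lies mostly left of that of all genes, with medians of 0.903 and 0.947.

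More of the cluster sequence was in the WT rescue list alone than in the mutant rescue list alone. Of the covered sequence, 68.2 kb was shared, 13.3 kb was in the WT rescue list only and 3.19 kb in the mutant rescue list only. The shared part was 83.7% of the WT rescue sequence and 95.5% of the mutant rescue sequence, beside 80.0% and 78.5% over the whole lists. All 76 mutant rescue regions overlapped a WT rescue region (100%, interval 95.3 to 100%, beside 77.7% of the list), and 74 of 90 WT rescue regions overlapped a mutant rescue region (82.2%, 72.7 to 89.5%, beside 80.7%). The 3.19 kb of the mutant rescue alone therefore lay in regions that touched a WT rescue region.

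The 16 WT rescue regions without a counterpart were small. They were 151 to 452 bp wide (median 240 bp), beside a median of 1060 bp for the overlapped ones, and their folds had a median of 2.17 and a maximum of 4.27, beside a median of 6.07. They numbered 7 in Hoxa, 5 in Hoxb, 3 in Hoxc and 1 in Hoxd, and 6 lay within 1 kb of a member's end. Together they made up 4.38 of the 13.3 kb found in the WT rescue list only; the rest was in regions that both lists held. Narrow width was common to such regions: the 13828 without a counterpart in the whole WT rescue list had a median of 286 bp.

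**Figure D4:**
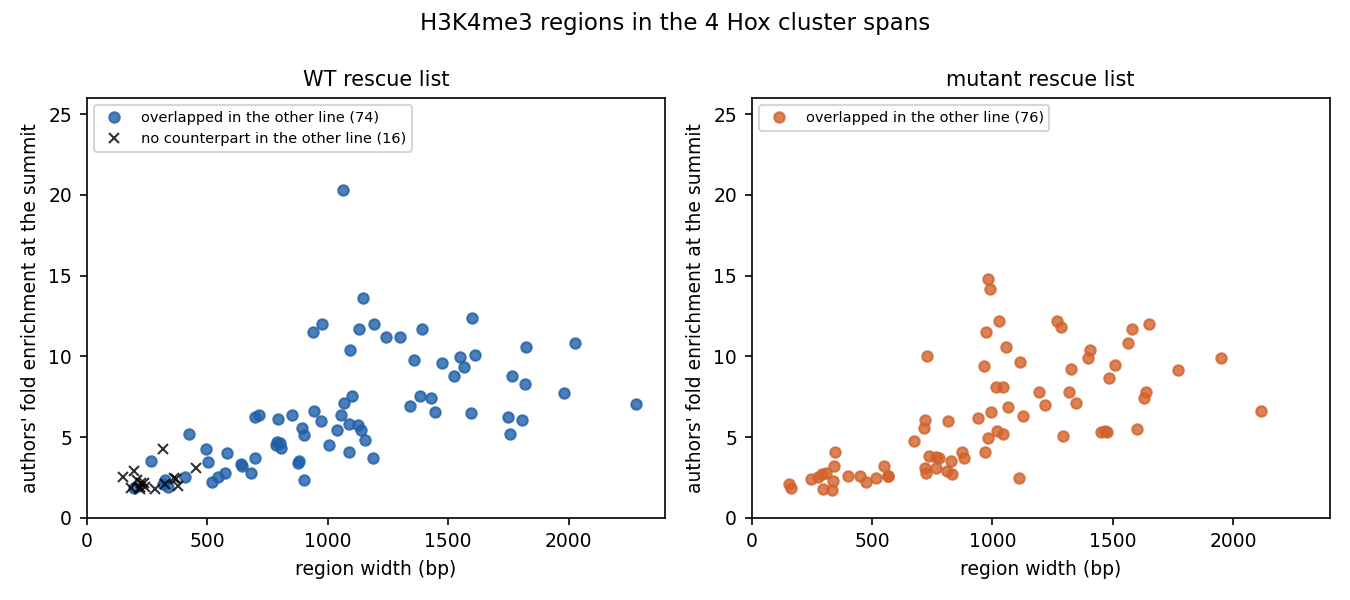
Each point is 1 H3K4me3 region of the cluster spans, with its width in bp on the horizontal axis and the authors' fold enrichment on the vertical axis, for the WT rescue list (left) and the mutant rescue list (right). Crosses are the 16 WT rescue regions with no counterpart in the mutant rescue, which crowd the corner of narrow width and low fold. The highest point is the region at Hoxc10, with a fold of 20.3.

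Where 1 region of each list paired with 1 of the other, widths differed little. There were 72 such pairs in the clusters, and the mutant rescue region was the narrower in 47 (65.3%), beside 58.1% of 51693 pairs over the whole lists. The median difference, mutant minus WT, was -38.5 bp in the clusters and -33.0 bp over the whole lists. In Hoxa it was narrower in 13 of 17 pairs, in Hoxb in 14 of 23, in Hoxc in 12 of 16 and in Hoxd in 8 of 16.

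WDR5 regions were listed at few Hox genes, at shares that counting error does not set apart from those of all genes. The folds of these regions were low, as in the whole WDR5 lists. In the WT rescue 4 of 38 members (10.5%, interval 2.94 to 24.8%) had a region within 1 kb of an end, beside 16.3% of all protein-coding genes, and in the mutant rescue 5 of 38 (13.2%, 4.41 to 28.1%), beside 10.7%. Both intervals include the share of all genes. Hoxa4 and Hoxb2 had a region in both lines (4.33% of all genes), Hoxa7 and Hoxc10 in the WT rescue only (12.0%), and Hoxa13, Hoxc13 and Hoxd9 in the mutant rescue only (6.38%). The other 31 had none in either list (77.3%), and at this unknown depth a region not listed is not a lack of WDR5.

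The regions at Hoxa4 lay in the same H3K4me3 region but did not overlap each other. In the WT rescue it was chr6:52192117-52192351 (235 bp, fold 3.12, −log10 q 0.844), 414 bp from the gene end. In the mutant rescue there were 2, at chr6:52191275-52191486 (212 bp, fold 2.26, 0.0171) and chr6:52191902-52192068 (167 bp, fold 2.98, 0.826). At Hoxb2, a hindbrain gene, the regions did overlap: chr11:96353043-96353404 in the WT rescue (362 bp, fold 2.69, 0.0232) and chr11:96353074-96353224 in the mutant rescue (151 bp, fold 2.70, 0.318).

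Of the members with WDR5 in 1 line, Hoxc10 had a region over its lower-coordinate end in the WT rescue (chr15:102966623-102966905, 283 bp, fold 2.19), and its −log10 q of 4.55 was the highest of the WT rescue regions in the clusters. It lay within the H3K4me3 region of highest fold, 20.3. At Hoxa7 the WT rescue region was chr6:52217536-52217731 (196 bp, fold 2.86, −log10 q 0.226), with a further one inside the gene at chr6:52217013-52217256 (244 bp, fold 2.09, 0). At Hoxa13 the mutant rescue region was chr6:52260345-52260591 (247 bp, fold 3.78, 2.88), the strongest of the mutant rescue, 289 bp from the annotated start. At Hoxc13 it was chr15:102928531-102928782 (252 bp, fold 2.77, 0.428), outside H3K4me3.

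At Hoxd9 the mutant rescue region was chr2:74697703-74698041 (339 bp, fold 2.64, −log10 q 0.255). It was the only WDR5 region of either line over 1 of the 24 annotated Hox promoters. That made 1 of 24 beside 4.38% of all promoters, and 0 of 24 in the WT rescue beside 7.47%. These promoters belong to 22 of the 38 members. Hoxa4, Hoxb2, Hoxc10 and Hoxc13 are not among them, so WDR5 at their promoters could not be counted, including the WT rescue region over an end of Hoxc10. The Hoxd9 promoter (chr2:74697513-74697812, + strand) is shown with the 110 bases that lay under its WDR5 region in capitals.
Hoxd9 promoter: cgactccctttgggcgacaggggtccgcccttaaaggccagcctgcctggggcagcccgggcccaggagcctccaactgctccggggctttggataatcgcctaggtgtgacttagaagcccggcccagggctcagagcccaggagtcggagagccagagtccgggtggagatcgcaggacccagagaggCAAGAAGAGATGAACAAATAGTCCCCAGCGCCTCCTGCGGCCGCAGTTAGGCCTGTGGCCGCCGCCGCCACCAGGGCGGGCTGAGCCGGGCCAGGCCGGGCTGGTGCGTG

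The WDR5 regions of the clusters were no weaker than their lists, with a median fold of 2.76 beside 2.66 in the WT rescue and 2.70 beside 2.5 for the mutant rescue. A −log10 q of at least 2 was reached by 2 of 9 (22.2%, beside 10.8%) and 2 of 11 (18.2%, beside 4.83%).

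Counting whole spans, there were 9 WDR5 regions in the WT rescue, 5 in Hoxa, 2 in Hoxb, 2 in Hoxc and 0 in Hoxd, and 11 in the mutant rescue, 5, 2, 1 and 3. That was 18.6 per Mb (exact Poisson interval 8.48 to 35.2) beside 4.14 over the genome in the WT rescue, and 22.7 (11.3 to 40.6) beside 10.1 in the mutant rescue. Both intervals lay above the genome value, without allowing for how closely genes lie in the clusters. Counting only WDR5 regions on H3K4me3, per Mb of H3K4me3-covered sequence, it was 110 (50.5 to 210) beside 81.6, and 98.1 (39.4 to 202) beside 51.7, so that the intervals include the value of the whole list. The strongest WT rescue fold, 3.49, was in Hoxa3 at chr6:52172256-52172722 (467 bp, −log10 q 2.11), overlapped in the mutant rescue by chr6:52172174-52172825 (652 bp, fold 3.67, 2.66). This place and Hoxb2 were the only shared ones: 2 of 9 and 2 of 11 regions overlapped a WDR5 region of the other line, beside 12.3% and 5.09% of the lists.

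The remaining WT rescue regions were in Hoxa10 (chr6:52234509-52234695, 187 bp, fold 2.89), 244 bp from an inner start, in Hoxb7 (chr11:96286824-96287115, 292 bp, fold 2.09) and 1048 bp from Hoxc12 (chr15:102939657-102939814, 158 bp, fold 2.76). The remaining mutant rescue regions were near Hoxa11 (chr6:52248156-52248355, 200 bp, fold 2.42), 5872 bp from Hoxb13 (chr11:96202482-96202665, 184 bp, fold 2.40), in Hoxd3 (chr2:74740285-74740503, 219 bp, fold 2.65) and 3501 bp from Hoxd3 (chr2:74751772-74751957, 186 bp, fold 3.49). The WDR5 regions of the WT rescue all lay on H3K4me3 of the same line, 9 of 9 (66.4 to 100%, beside 46.0% of the list). Those of the mutant rescue did so in 7 of 11 (63.6%, 30.8 to 89.1%, beside 12.3%). Seen from the mark, 8 of 90 WT rescue regions of H3K4me3 (8.89%, beside 6.63% of the list) and 6 of 76 mutant rescue regions (7.89%, beside 4.24%) held WDR5.

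The Hox clusters also hold microRNA genes. The miR-10 and miR-196 microRNAs repress Hox genes among their targets, and they are printed with the seed, bases 2 to 8, in capitals, because that is the part that pairs with targets. The miR-10 pair share 1 seed and the miR-196 set another, although they lie in different clusters. Sequences are from RefSeq (GRCm38.p6).
miR-10a-5p: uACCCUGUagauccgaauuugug
miR-10b-5p: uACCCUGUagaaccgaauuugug
miR-196a-5p: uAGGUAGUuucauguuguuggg
miR-196b-5p: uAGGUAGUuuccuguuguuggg

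The miR-10 genes were close to H3K4me3 in both lines. The mature miR-10a, beside Hoxb4 (chr11:96317186-96317208), was 895 and 978 bp from the nearest region, and miR-10b, inside Hoxd4 (chr2:74726074-74726096), 862 and 903 bp. The mature miR-196b, between Hoxa9 and Hoxa10 (chr6:52230129-52230150, − strand), was 346 bp from a WT rescue region of 243 bp and fold 1.89 that had no counterpart, and 3650 bp from the nearest mutant rescue region. The copies of miR-196a in Hoxb and Hoxc were 1130 and 2321 bp from a WT rescue region and 3530 and 2481 bp from a mutant rescue region. Of 18 non-coding RNA genes of the clusters, 13 and 11 had H3K4me3 within 1 kb of an end, beside 68.4% and 67.6% of protein-coding genes. At Hotair the WT rescue region, 1129 bp with a fold of 11.7, lay at chr15:102942519-102943647. WDR5 was listed at 3 in both lines, Hotairm1, Hotairm2 and Hoxb3os, beside 4.33% of protein-coding genes. The first pair share 1 region (folds 3.46 and 3.8) and Hoxb3os shares that of Hoxb2.

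Genes that work with or on Hox genes were mostly marked too, as most genes are. Of all protein-coding genes 68.4% (WT rescue) and 67.6% (mutant rescue) had H3K4me3 within 1 kb of a gene end, and 66.6% had it in both. WDR5 was listed at 16.3% and 10.7% of them, and at 4.33% in both. All 9 TALE genes, whose proteins bind DNA together with Hox proteins, had H3K4me3 in both lines, and Pbx3 and Meis2 had WDR5 in both. All 8 ParaHox and Evx genes, the nearest relatives of the Hox genes, had H3K4me3 in both lines, and WDR5 was listed only at Cdx2, in the mutant rescue (fold 2.77). Of 15 genes of Polycomb proteins, which hold Hox genes silent, all had H3K4me3 in both lines, 6 had WDR5 in the WT rescue, 3 in the mutant rescue and 1, Ezh2, in both. Of 9 trithorax genes 8 had H3K4me3 in each line, 4 (Kmt2a, Psip1, Rbbp5 and Wdr5) had WDR5 in the WT rescue and 1 (Dpy30) in the mutant rescue.

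Less H3K4me3-covered sequence in the mutant rescue was not particular to Hox genes. Of 37 other developmental transcription factor genes, such as Pax6 and Sox9, 34 and 33 had a region within 1 kb. Less covered sequence in the mutant rescue was found at 35 of the 37 (94.6%), with a median ratio of 0.854. The trithorax genes had less in 9 of 9 (median 0.883), the Polycomb genes in 11 of 15 (0.924), the ParaHox and Evx genes in 5 of 8 (0.908), the TALE genes in 6 of 9 (0.966) and the embryonic stem cell markers in 5 of 8 (0.940). The fibroblast feeder markers, at 0.626 (quartiles 0.433 and 0.887), had the lowest median of these lists.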

How the data were processed

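Per the submitters' processing notes, the authors' tools were MACS2 2.1.2, BWA 0.7.17-r1188, Picard and SAMtools, with the mm10 build; settings and the control of each list are not given in the sources used here. Each deposited narrowPeak list belongs to 1 library. The deposited lists give each region's position, its fold enrichment at the summit as a ratio, its −log10 p, its −log10 q, a score and a summit offset; the deposited score was not used. The smallest deposited −log10 p was 2.00, so regions of −log10 q near 0 are included. The 2 input libraries were not analysed here.

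Genes came from a RefSeq table (GRCm38.p6, the coordinates of mm10). It has no strand, so both gene ends were used with a window of 1 kb; promoters and starts came from a RefSeq promoter table, which had 22 of the 38 members. A minimum overlap of 1 bp counted. Covered sequence is the bases inside regions. Shares have exact Clopper-Pearson and densities exact Poisson 95% intervals. The counting was tested on simulated data. Python 3.11.15, numpy 2.4.6, pandas 2.3.3, scipy 1.17.1 and matplotlib 3.10.9 were used.

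The members, gene lists and alternatives were chosen with earlier results of these data known. Values are given in full for members with WDR5 in either line, with H3K4me3 in 1 line or none, and, per cluster, with the widest region and the highest fold in the WT rescue. The promoters, microRNAs, internal regions and ratios per gene that the text adds were chosen once their values had been seen. Alternatives were stricter −log10 p and q, lists of equal length, joined regions, other windows and spans, and a reciprocal overlap of 50%.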

Additional observations from a re-analysis of the deposited data

How the results depend on the processing

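Of 111 values under alternative settings, over 19 results, 90 stayed within 1.5 times the reported value or, for shares, within its interval, and 21 did not. Members were compared as counts and not as shares. The setting near an annotated start, with 22 members in place of 38, therefore fell among the 21 in every list, also where the share was similar. The ratio of H3K4me3-covered sequence over all clusters ranged from 0.862 to 0.886, and that of single clusters from 0.820 to 0.918, all below 1.

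The WDR5 counts depended most on the settings, since few of these regions pass a stricter threshold. Members with WDR5 in the WT rescue (4, beside 16.3% of all genes) became 1 at a −log10 p of at least 5 (2.63%, beside 4.70%), 1 where −log10 q was 2 or more (beside 2.35%) and 1 over the gene end itself (beside 4.03%). They became 2 of 22 near an annotated start (9.09%, beside 16.5%), 7 anywhere in the gene (18.4%, beside 26.8%) and 7 in a window of 2.5 kb (beside 20%). In the mutant rescue (5, beside 10.7%) they became 1 (beside 2.76%), 1 (beside 1.72%), 1 (beside 2.61%) and 2 of 22 (9.09%, beside 9.43%) under the first 4 of these, 7 anywhere in the gene (18.4%, beside 30.7%) and 6 within 2.5 kb (15.8%, beside 15.9%). With lists of equal length the counts at 1 kb stayed 4 in the WT rescue (beside 16.3%) and 5 in the mutant rescue (13.2%, beside 6.24%). The mutant rescue share was thus above that of all genes at 1 kb in the full and equal-length lists, and below it anywhere in the gene.

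Of the 9 WT rescue WDR5 regions in the clusters 2 and 2 passed that −log10 p and −log10 q, and of the 11 mutant rescue ones 3 and 2. With lists of equal length there were 9 and 8, so that the line with more changed. WDR5 regions on H3K4me3 were 22.2% (WT rescue, 100% before) and 9.09% (mutant rescue, 63.6% before) with a reciprocal overlap of 50%, which asks that the wider H3K4me3 region be covered by that share too, and 100% of the 2 mutant rescue regions that reached that −log10 q.

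Members with H3K4me3 in the WT rescue (35) became 19 of 22 near an annotated start (86.4%, beside 68.6%) and 22 over the gene end itself (57.9%, beside 57.6%). In the mutant rescue (33) they became 19 of 22 (beside 67.9%) and 22 (57.9%, beside 57.2%). The excess over all genes was thus not seen at the gene end itself. The mutant rescue regions overlapped in the WT rescue went from 100% to 93.4% with a reciprocal overlap of 50%. No paired analysis was possible because each group had 1 library, and none could be left out. Read depth is unknown, which limits every count of regions.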
